A study of Mus musculus with 6 samples.

Results

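Of the 9 Hedgehog pathway genes followed on these mouse pancreas arrays, the ligand Dhh and the transcription factor Gli3 were clearly higher in cells of KCS pancreata, which carry floxed Setdb1 alleles, than in those of KC pancreata. The signal transducer Smo was higher by a smaller step. Gli2 was above background in the KCS group alone, so that only a lower bound of its difference can be given, and its sign turned with another background correction. Ptch1 and Gli1, the genes most often read as outputs of the pathway, did not pass the main test. Both were called higher when the slide was fitted as a block, though the 2 Ptch1 probes pointed opposite ways. With the other background correction Ptch1 was called lower. Shh, Ihh and Hhip were at or near background. The 9 genes are the ligands Shh, Ihh and Dhh, the receptor Ptch1, the inhibitor Hhip, the transducer Smo and the transcription factors Gli1, Gli2 and Gli3. They were found by matching the accession of each non-control probe, without its version, to RefSeq genes. They hold 12 of 56605 probes and are 9 of 23462 named genes. Ihh, Ptch1 and Hhip had 2 probes each and the others 1.

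Hedgehog ligands are lipid-modified secreted proteins. Without ligand, the receptor PTCH1 keeps SMO out of the primary cilium, and GLI3 and GLI2 are cut into repressors of transcription. When ligand binds, SMO enters the cilium, the GLI proteins stay whole, and Gli1, Ptch1 and Hhip are transcribed. In the pancreas the pathway is kept low during development of the organ. In pancreatic cancer epithelial cells are known to release ligand to which stromal fibroblasts respond.

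The series holds acinar cells isolated from pancreata of C57BL/6 mice of 2 genotypes, with 3 one-colour arrays each. In KC mice, Cre driven by Ptf1a, which marks pancreatic progenitors, removes the stop cassette of an oncogenic allele. KCS mice carry Ptf1aCre and the same allele, and both copies of Setdb1, a histone H3 lysine 9 methyltransferase gene, are flanked by loxP sites as well. Both groups thus share the oncogene, and no sample without it was analysed here. The labels give neither ages nor whether each sample is a separate mouse, so the p-values measure the spread between these samples, which may be in part technical.

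Signals were put on a log2 scale and the 75th percentile of each array was subtracted, so 0 is the signal that 1 in 4 probes exceeds. That percentile was 61.2 to 68.6 scanner units in the KC group and 347 to 423 in the KCS group. The scanner program marked 26550 to 27235 probes as well above background in the KC group and 35365 to 35920 in the KCS group. Probes at background on every array (17203) therefore lay lower on the KCS arrays by construction of the scale, with a median log2 difference of -2.32. Precision is limited by the 3 arrays that each group has. Setdb1 itself, with 1 probe, had scaled log2 signals of -0.91, -1.05 and -0.32 in KC replicates 1, 2 and 3 and of -0.28, -0.44 and -0.55 in KCS replicates 1, 2 and 3. The groups overlapped (log2 difference 0.33 ± 0.24, SE, limma adjusted p = 0.270). A probe outside the part between the loxP sites checks nothing about the genotype, and where this probe lies is not known here.

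The labelled cell type holds for the KC samples and less so for the KCS samples. All 12 acinar markers measured were lower in KCS, and 6 were called when any 1 KC array or that of KCS replicate 2 was left out. Their summed level, as a sum of scaled signals, was 31183 to 37033 on the KC arrays, against 3.65, 20.8 and 2630 on the arrays of KCS replicates 1, 2 and 3. Markers of fibroblasts and stellate cells rose in 11 of 12 cases, with no fall (median log2 difference 3.11), and their summed level went from 206 to 276 in KC to 1167 to 1477 in KCS. In bulk samples like these, fewer cells of a type and less RNA per cell cannot be told apart. What part this difference in cell types has in the results below was not tested.

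Among the ligands, Dhh stood out. Dhh (Desert hedgehog) is known as the ligand of Schwann cells, Sertoli cells and some endothelial cells. Its scaled log2 signal was -1.68, -2.75 and -2.81 in KC replicates 1, 2 and 3. In KCS replicates 1, 2 and 3 it was 0.96, 1.71 and 1.41. The lowest KCS sample lay well above the highest KC sample. In scanner units Dhh was at 20.8, 10.2 and 8.74 on the KC arrays and at 761, 1383 and 922 on the KCS arrays. It exceeded background clearly in 2 of 3 KC and in all 3 KCS samples. Dhh rose by 3.77 ± 0.37 on the log2 scale (SE, n = 3 per group, limma adjusted p = 3.50e-04), a 13.6-fold difference. With normexp background correction it was 2.05 (adjusted p = 6.71e-05). Replicate 1 of both groups shared the first slide, where the difference was 2.64; the second slide gave 4.34.

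The cell types known to make Dhh did not move together. Of 7 Schwann cell and nerve markers 5 were tested, and 2 rose and 2 fell (median log2 difference -0.64). Among them S100b, a calcium-binding protein gene of Schwann cells, rose by 1.24 ± 0.18 (limma adjusted p = 0.00152). The marker Ngfr failed the background criterion in all KC samples, and Gfap was not tested. The summed level of the Schwann cell and nerve markers was 0.927 to 1.15 in KC and 1.15 to 1.35 in KCS. Of 8 endothelial markers 7 rose and none fell (median 1.17), 4 without KCS replicate 1 or KCS replicate 2, with summed levels of 17.1 to 19.8 in KC and 31.3 to 72.8 in KCS. The part of either cell type in the Dhh difference was not tested.

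Shh (Sonic hedgehog), the ligand most often described in pancreatic cancer, was not detected. Its 1 probe was not well above background on any of the 6 arrays. It read 1.80 to 2.0 scanner units in KC and 2.11 to 2.42 in KCS, which on the scaled axis is -5.21, -5.13 and -4.94 in KC and -7.54, -7.45 and -7.29 in KCS. This log2 difference of -2.33 is that of probes at background (-2.32) and gives no direction for Shh. Ihh (Indian hedgehog), a ligand of cartilage and gut epithelium, was well above background only on KCS arrays, with 1 of its 2 probes and in replicates 2 and 3. That probe read -3.38, -5.15 and -4.35 in KC replicates 1, 2 and 3 and -5.61, -4.71 and -3.99 in KCS replicates 1, 2 and 3. The groups overlapped, and no fold can be given. The other Ihh probe was at background on all 6 arrays.

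**Figure D1:**
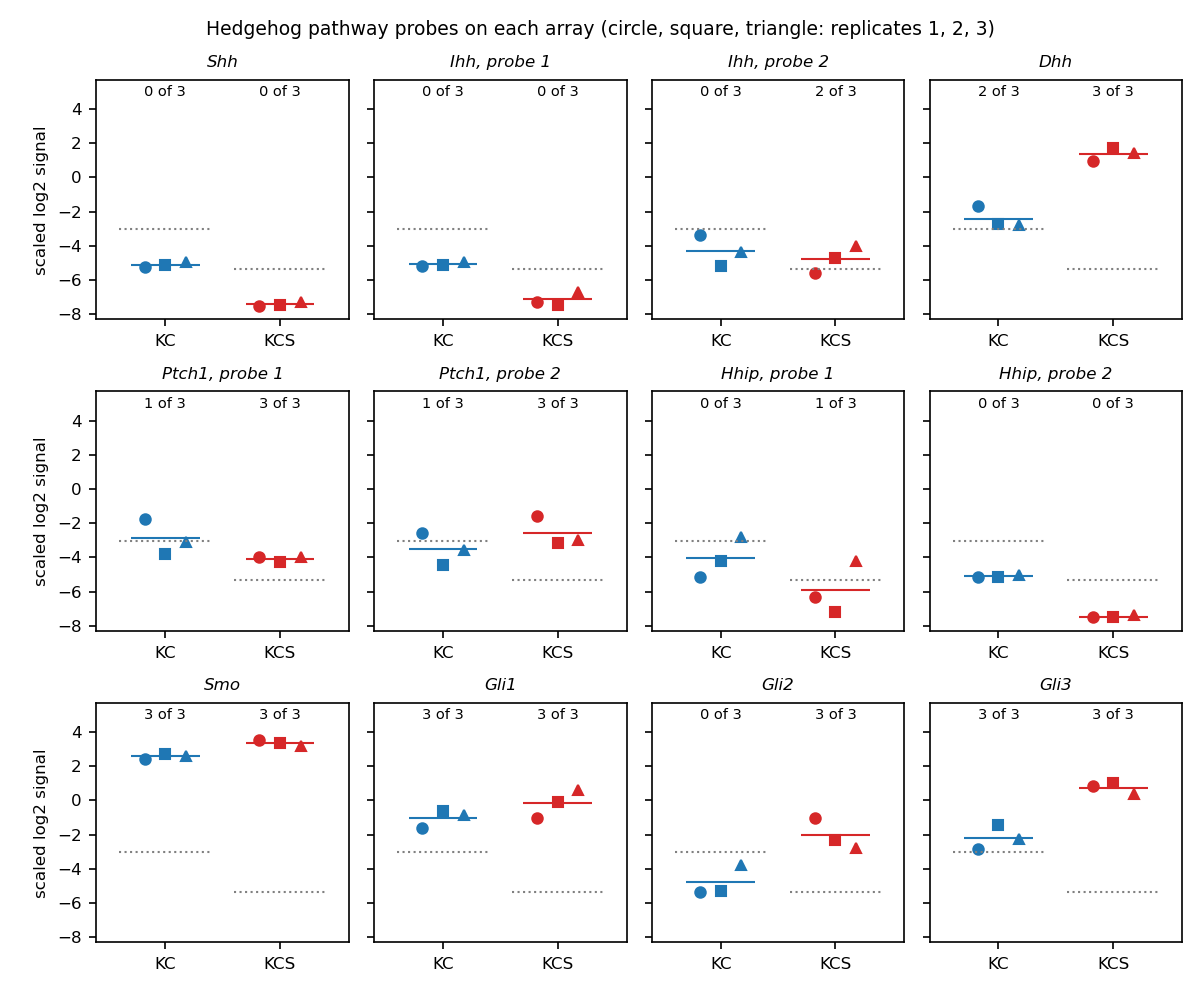
Scaled log2 signal (vertical axis, 0 at the 75th percentile of the array) of the 12 Hedgehog pathway probes on the 3 KC arrays (blue) and the 3 KCS arrays (red), with lines at the group means. Dotted lines mark the mean over the group's arrays of the lowest signal well above background, and the counts at the top say on how many arrays of 3 the probe was well above background. Dhh, Gli2, Gli3 and Smo separate the groups with KCS higher, Gli2 with KC signals that were not well above background. Ptch1 probe 1 separates them with KCS lower. The points of Shh, Ihh probe 1 and Hhip probe 2 follow the lower background of the KCS arrays.

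The receptor and the inhibitor gave no clear direction. Ptch1 encodes the receptor that holds SMO in check and is itself a GLI target. Its brighter probe read -2.57, -4.45 and -3.57 in KC replicates 1, 2 and 3 and -1.56, -3.18 and -2.96 in KCS replicates 1, 2 and 3. The groups overlapped, and the log2 difference was 0.96 ± 0.61 (SE, limma adjusted p = 0.209). The slides gave 1.0 (first) and 0.94 (second), and fitted with the slide as a block Ptch1 passed (limma adjusted p = 0.0247). With normexp background correction the log2 difference of Ptch1 was -0.81, and it was called lower (limma adjusted p = 0.0194). The other Ptch1 probe (probe 1 in the plot of values by array) pointed the other way, at -1.18 ± 0.50 when every probe was tested on its own (limma adjusted p = 0.0809). Its KC values were -1.75, -3.79 and -3.12 and its KCS values -3.98, -4.26 and -3.97. Each probe passed the background criterion in 1 of 3 KC samples, replicate 1, and in all 3 KCS samples. The 2 probes therefore do not settle whether Ptch1 differed.

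Hhip encodes a membrane protein that binds and sequesters ligand. Its first probe was well above background on 1 of 6 arrays, that of KCS replicate 3, at -4.20, against -6.33 and -7.18 in the other KCS samples and -5.15, -4.23 and -2.81 in KC. Its second probe was at background on every array, and Hhip was not tested.

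Smo, the transducer that PTCH1 inhibits, was well above background on all 6 arrays. Its scaled log2 signal was 2.43, 2.71 and 2.59 in KC replicates 1, 2 and 3. It was 3.51, 3.33 and 3.17 in KCS replicates 1, 2 and 3. The groups did not overlap, and both were tight, with an SD of 0.14 in KC and 0.17 in KCS. Smo rose by 0.76 ± 0.18 on the log2 scale (SE, limma adjusted p = 0.0116), a 1.69-fold difference. The slides gave 1.08 (first) and 0.60 (second), where the call was lost with the arrays of that slide alone (limma adjusted p = 0.0794).

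The 3 GLI genes moved by different amounts. Gli3, which mainly acts as the repressor form, was well above background on all 6 arrays. It read -2.82, -1.42 and -2.25 in KC replicates 1, 2 and 3 and 0.84, 1.0 and 0.38 in KCS replicates 1, 2 and 3. Every KCS sample lay above every KC sample. Gli3 rose by 2.91 ± 0.38 (SE, limma adjusted p = 0.0010), a 7.49-fold difference, and the slides gave 3.66 (first) and 2.53 (second). With normexp background correction it was 1.38 (adjusted p = 2.78e-04).

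Gli2, the main activator in many mouse tissues, was well above background on all 3 KCS arrays and on 0 of 3 KC arrays. It thus entered the test through the KCS arrays alone, which means that it had to differ. It read -5.34, -5.28 and -3.75 in KC replicates 1, 2 and 3 and -1.05, -2.32 and -2.75 in KCS replicates 1, 2 and 3. Gli2 was at least 1.99-fold higher in KCS. This bound counts each dim spot at the lowest signal well above background on its array where its own signal was lower. The measured group means were -4.79 in KC and -2.04 in KCS. The limma adjusted p of 0.00745 belongs to these measured signals, not to the bound, and is not read as support. The slides gave 4.29 (first) and 1.98 (second). With normexp background correction the log2 difference was -0.33 (limma adjusted p = 0.293).

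Gli1, which is made when the pathway is active and is widely used as its readout, was well above background on all 6 arrays. It read -1.61, -0.64 and -0.85 in KC replicates 1, 2 and 3. It read -1.04, -0.10 and 0.64 in KCS replicates 1, 2 and 3. KCS replicate 3 was the highest of all and KC replicate 1 the lowest, but the groups overlapped in between. The log2 difference was 0.87 ± 0.47 (SE, limma adjusted p = 0.155). The slides gave 0.58 (first) and 1.0 (second), and Gli1 passed with the slide as a block (limma adjusted p = 0.0297), with median centring (1.22, adjusted p = 0.0495) and without KCS replicate 1 (1.3, adjusted p = 0.0355). Without KCS replicate 3 it was 0.46 (adjusted p = 0.385).

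Fibroblasts, in which Hedgehog target genes are known to respond, are one place to set these values. The fibroblast and stellate cell markers had a median log2 difference of 3.11, the collagen gene Col1a2 one of 3.12 ± 0.17, and Dcn one of 0.79 ± 0.28, beside 2.91 for Gli3, 0.76 for Smo and 0.87 for Gli1. Of 8 smooth muscle and pericyte markers 6 rose and 1 fell (median 2.73), with summed levels of 92.3 to 161 in KC and 150 to 169 in KCS. No fibroblast marker was at background in all samples of a group. Of 8 macrophage markers 7 rose and none fell (median 3.67), and their summed level went from 22.3 to 34.0 in KC to 259 to 377 in KCS. The part of these cell types in the differences of Smo and the GLI genes was not tested.

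**Figure D2:**
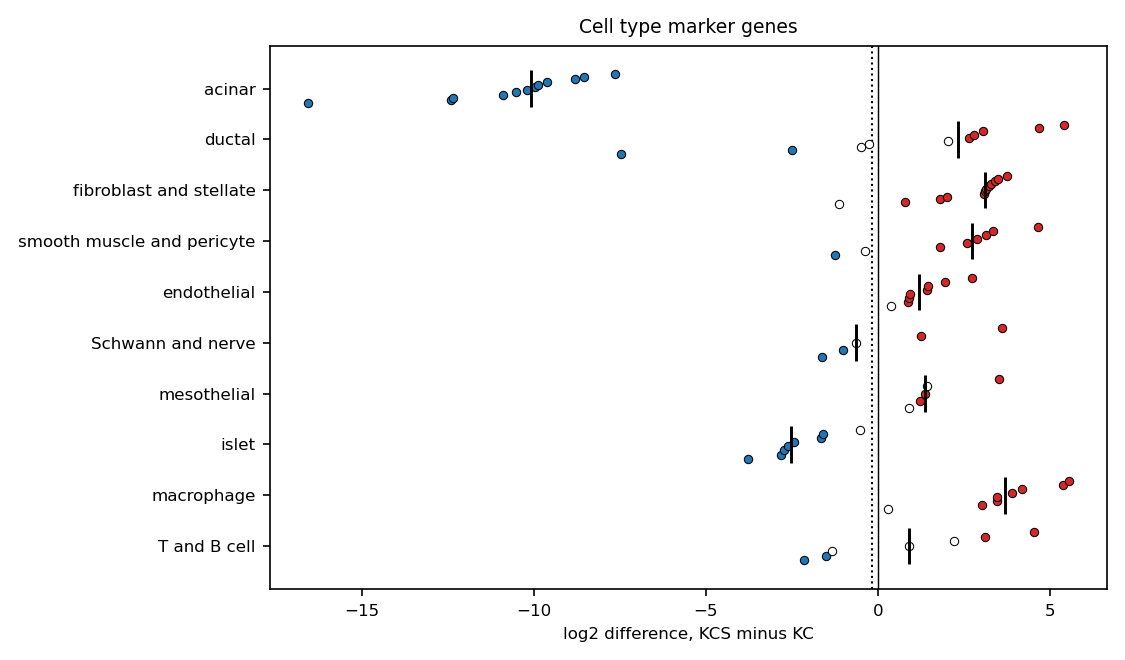
Log2 difference, KCS minus KC (horizontal axis), of each tested marker gene of 10 cell types, with filled points for genes called by limma (red higher, blue lower), open points for genes not called and bars at the list medians. The dotted line is the median of all rows (-0.19). Acinar markers lie between -16.56 and -7.63, and 11 of 12 fibroblast and stellate markers lie to the right.

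Of the 9 genes, 6 had a probe well above background on at least 3 arrays and were tested, and 4 of these 6 were called higher and none lower. With the slide as a block all 6 were called higher. Over all genes and unnamed probes, 60.3% of 27102 rows were called, 25.9% higher and 34.4% lower, so a call as such is common in this comparison. With the slide as a block 63.5% of rows were called, 26.8% higher and 36.7% lower, and with median centring 59.8%, 33.8% higher and 26% lower. Since Gli2 passed the filter only where it was high, nothing is read from the count. The groups of 3 arrays did not overlap for Dhh, Smo, Gli2 and Gli3 among the tested genes, against 68.2% of all rows.

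**Figure D3:**
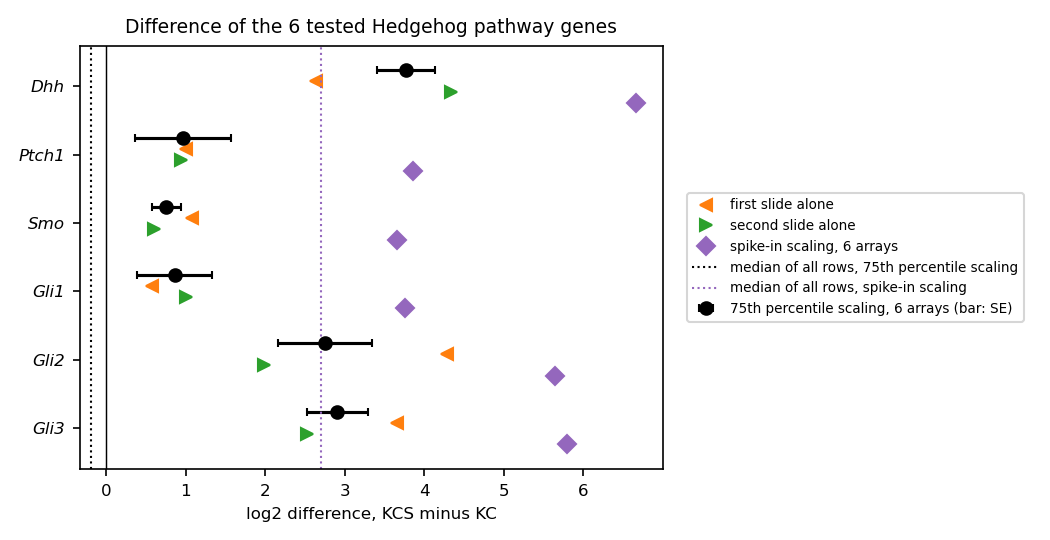
Log2 difference, KCS minus KC (horizontal axis), of the 6 tested Hedgehog pathway genes from all arrays (black, bar: SE), within each slide (triangles) and with spike-in scaling (diamonds). Dotted lines mark the median of all rows, -0.19 with the 75th percentile and 2.70 with spike-in scaling. Dhh and Gli3 lie to the right of the other members measured in both groups. The Gli2 points use KC signals that were not well above background, and spike-in scaling moves every gene by the same amount.

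The choice of scale sets where 0 lies. With spike-in controls as the common scale, the median log2 difference of all rows went from -0.19 to 2.70, and 90% of rows were called, 87.2% higher and 2.85% lower. On that scale the log2 differences were 6.67 for Dhh, 5.80 for Gli3, 3.86 for Ptch1, 3.76 for Gli1 and 3.65 for Smo, and Gli2 was at least 14.8-fold higher. Relative to the median row, Dhh, Gli3, Ptch1, Gli1 and Smo lay at 3.96, 3.1, 1.16, 1.06 and 0.95, which this change of scale leaves as they are by construction. Whether equal amounts of RNA and controls went into each reaction is not known here.

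The promoter windows of Dhh and Gli3 are shown because these 2 members were the most clearly higher. They run from 250 bases before to 50 after the start of the gene, from RefSeq on GRCm38.p6, and capitals mark CpG dinucleotides. The Dhh window is chr15:98898491-98898790 on the minus strand and that of Gli3 chr13:15463473-15463772 on the plus strand.
Dhh: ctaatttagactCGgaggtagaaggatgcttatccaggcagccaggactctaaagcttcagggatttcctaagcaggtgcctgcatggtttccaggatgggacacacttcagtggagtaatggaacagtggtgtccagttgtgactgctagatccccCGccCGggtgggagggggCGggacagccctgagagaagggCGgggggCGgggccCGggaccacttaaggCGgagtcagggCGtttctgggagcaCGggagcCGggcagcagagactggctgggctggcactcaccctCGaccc
Gli3: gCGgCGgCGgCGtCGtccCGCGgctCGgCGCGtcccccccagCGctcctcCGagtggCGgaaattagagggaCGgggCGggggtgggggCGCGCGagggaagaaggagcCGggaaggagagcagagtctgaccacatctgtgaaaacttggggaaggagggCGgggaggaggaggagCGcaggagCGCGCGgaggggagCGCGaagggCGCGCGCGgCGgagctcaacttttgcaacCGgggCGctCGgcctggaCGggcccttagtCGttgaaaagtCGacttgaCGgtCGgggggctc
The Dhh window has 12 CpG dinucleotides and 61.7% G or C, and the Gli3 window has 39 and 71.0%, against a median of 7 CpG over 32851 promoters. The other windows held 17 for Smo, 28 for Gli2, 30 for Ihh, 30 for Hhip and 47 for Ptch1. Of the 9 genes 7 were in the promoter table, which left out Shh and Gli1. The GLI binding motif GACCACCCA, searched on both strands, was in none of the 7 windows, exactly or with 1 mismatch. Over all promoters 0.253% held it exactly and 6.74% with at most 1 mismatch.

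The other genes of the pathway were read from 6 lists of 68 genes in all, of which 66 were tested. Among them 36 rose and 5 fell (54.5% and 7.58% of those tested, median log2 difference 0.79), beside 25.9% and 34.4% of all rows. These counts depend on the scale: with median centring 44 were called higher and 2 lower, and with spike-in scaling all 66 were called higher. On 8 of these genes the KC signal was not well above background on any array. They too could pass the filter only through the KCS arrays, so no p-value is printed beside their bounds. The lists were also chosen with earlier results of these data known. For both reasons nothing is read from these counts beside the shares of all rows.

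Genes that process and release the ligand had the highest median of the 6 lists. Of 5 tested 4 rose and none fell (median 2.31, which is the value of Hhat). Hhat, which attaches palmitate to Hedgehog ligands, rose by 2.31 ± 0.28 (limma adjusted p = 7.67e-04), though its second probe was at -1.21. The rank of this list among the 6 thus depends on which Hhat probe is taken. Disp1, the transporter that lets lipid-modified ligand leave the cell, rose by 1.66 ± 0.21 (adjusted p = 9.29e-04), from -2.84, -2.29 and -2.82 in KC to -0.86, -1.06 and -1.05 in KCS. Scube2, a secreted protein that helps DISP1 release ligand, rose by 3.28 ± 0.55 (adjusted p = 0.00264), while the lowest of its 3 probes was at -0.35. Its relative Scube1 lacked a KC array well above background and lay at least 12.3-fold higher in the KCS group. Disp2 was at -0.17 ± 0.26 (adjusted p = 0.588), and Scube3 was not tested.

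Co-receptors and other ligand-binding proteins were mixed. Of 8 tested 4 rose and 1 fell (median 0.57, and 0.46 once dim genes are set to their bound). Only 1 rose without KC replicate 1, KC replicate 3 or KCS replicate 1, and 2 without KCS replicate 3; without KCS replicate 1, 2 fell. The co-receptor genes Cdon and Gas1, whose products present ligand to PTCH1, rose by 0.83 ± 0.25 (limma adjusted p = 0.0273) and by 0.82 ± 0.29 (adjusted p = 0.0441). A second Cdon probe was at -1.13. Boc, the third co-receptor, was at 0.09 ± 0.25 (adjusted p = 0.768). Gpc3, a glypican that competes with PTCH1 for ligand, fell by 1.37 ± 0.23 (limma adjusted p = 0.00274). With spike-in scaling Gpc3 was at 1.52, below the median of all rows on that scale (2.70). The glypican gene Gpc4 rose by 0.90 ± 0.29, and Gpc6 was higher by at least 2.21-fold.

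Of 14 regulators of the GLI proteins, 4 rose and 1 fell (median 0.45, and 0.27 at the bounds). With median centring 7 rose and none fell, and with spike-in scaling all 14 were called higher. Sufu, which holds GLI proteins in the cytoplasm and is the main brake below SMO, rose by 1.85 ± 0.18 (limma adjusted p = 3.66e-04). It read -2.21, -1.95 and -2.0 in KC replicates 1, 2 and 3 and -0.04, -0.17 and -0.40 in KCS replicates 1, 2 and 3, and the lowest of its 3 probes was at 0.56. Prkacb, a catalytic subunit of protein kinase A, which marks GLI proteins for processing, rose by 0.98 ± 0.19, and the casein kinase gene Csnk1e by 1.35 ± 0.29. Stk36, a kinase related to Fused of Drosophila, fell by 0.93 ± 0.21 (limma adjusted p = 0.00828). With spike-in scaling Stk36 was at 1.96, where the median of all rows was 2.70. Kif7, a kinesin of the cilium tip, was at 0.95 ± 0.50 (adjusted p = 0.140), with every KC array short of the background criterion.

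Among partners of SMO and cilium genes none fell. Of 7 SMO partners 4 rose and none fell (median 0.77), and 2 rose without KCS replicate 1 or KCS replicate 2. Evc and Evc2, which form a complex at the base of the cilium that relays the SMO signal, rose by 0.77 ± 0.26 (limma adjusted p = 0.0390) and 1.79 ± 0.22 (adjusted p = 7.38e-04). Grk2, a kinase that acts on SMO, rose by 1.05 ± 0.24. Iqce, which anchors the EVC complex, rose by 0.65 ± 0.23 (limma adjusted p = 0.0481), though its second probe was at 0.015. Of 12 cilium transport genes 6 rose and none fell (median 0.50), and 3 rose when KCS replicate 1, KCS replicate 2 or KC replicate 1 was left out. Tulp3, which carries receptors into the cilium, rose by 2.37 ± 0.22 (adjusted p = 3.08e-04). The ciliary GTPase gene Arl13b rose by 1.14 ± 0.19 and the motor gene Kif3b by 0.65 ± 0.18. Traf3ip1, a subunit of the intraflagellar transport machinery, was at least 2.40-fold higher.

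Genes reported to respond to Hedgehog signals, outside the 9 members, were mostly higher. Of 21 tested 14 rose and 3 fell (median 1.84, and 1.55 at the bounds). The forkhead factor gene Foxf1, a mesenchymal Hedgehog target of the gut, rose by 1.84 ± 0.33 (limma adjusted p = 0.00330), from -1.67, -0.91 and -1.53 in KC to 0.78, 0.72 and -0.10 in KCS. Its relative Foxf2 was at least 1.75-fold higher, and Foxl1 was not tested. Sfrp1, a secreted Wnt inhibitor, had no KC array well above background, and its KCS level was at least 94.9 times the KC bound. Snai1, a transcription factor of mesenchymal cells, rose by 3.49 ± 0.21, and Spp1 (osteopontin), which is also among the ductal markers, by 2.64 ± 0.19. The 3 that fell were Bmp4, Igf1 and Igf2, named here after their values were seen, at -0.91, -1.86 and -0.99. With spike-in scaling all 3 were above 0 (1.98, 1.04 and 1.91) but below the median of all rows (2.70). Beside them, the fibroblast markers had a median of 3.11, and the part of those cells was not tested.

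**Figure D4:**
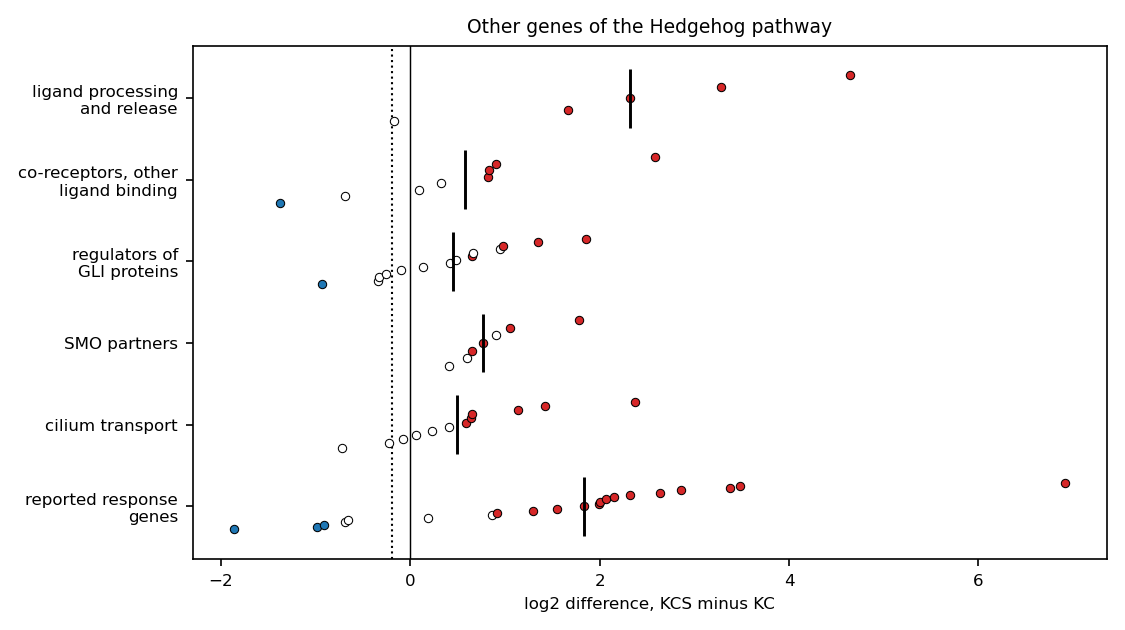
Log2 difference, KCS minus KC (horizontal axis), of each tested gene in the 6 lists of other Hedgehog pathway genes, with filled points for genes called by limma (red higher, blue lower), open points for genes not called and bars at the list medians. The dotted line is the median of all rows (-0.19). Points of ligand release and response genes reach farther right than those of the GLI regulators and cilium genes.

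The genes whose values over the 6 arrays lay nearest to each member, each gene centred on its own mean, were found among 16263 named genes by Euclidean distance in log2 units. Nearest to Dhh were Exoc3l4 (distance 0.47) and Fgd6 (0.53). Nearest to Smo were Mettl6 (0.09) and Tmem127 (0.13), and to Gli3 Tec (0.29) and Bhlhe40 (0.35). Nearest to Gli1 were Wdr72 (0.46) and Cgn (0.49), to Gli2 Ptprt (0.65) and Zfp532 (0.78), and to Ptch1 Camk2a (0.67) and Gm8909 (0.68). No member was among the nearest genes of another.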

How the data were processed

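RNA of 6 samples was hybridised to 6 one-colour (Cy3) Agilent arrays. Per the file headers, the scans were quantified in Agilent Feature Extraction 12.0.3.1; its processed signal, as deposited, is a background-corrected intensity. A deposited table gives log2 values that matched the scaled scanner values after centring each probe on its median over the arrays.

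Here log2 processed signals minus each array's 75th percentile were used. Outlier spots were left out, spots averaged per probe, and probes tested where at least 3 of 6 arrays were well above background. The brightest of a gene's probes stood for it. Probes were named by RefSeq accession (GRCm38.p6): 33767 of 56605 matched. KCS was compared with KC by limma 3.58.1 (R 4.3.3, two-sided, Benjamini-Hochberg over 27102 rows, threshold 0.05), after testing on simulated data. Figures used matplotlib 3.10.9.

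Replicate 1 of both groups shared a slide, and replicates 2 and 3 a second slide. Members, lists and marker sets were chosen with earlier results of these data known. Named are all 9 members, Setdb1, up to 4 called genes per list by p-value, a fixed set of pathway genes whatever their result, the 2 nearest genes per member and the 2 brightest markers per cell type where a result touches them. Some genes that this rule names are not reported here.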

Additional observations from a re-analysis of the deposited data

How the results depend on the processing

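Dhh and Gli3 stayed higher and called under every alternative that tested them, and Smo stayed higher under all, with its call lost at a threshold of 0.01 (adjusted p = 0.0116) and within the second slide alone (0.60, adjusted p = 0.0794). With 1 array left out, the differences ran from 3.57 to 4.14 for Dhh, 2.58 to 3.28 for Gli3, 0.67 to 0.84 for Smo, 2.26 to 3.27 for Gli2, 0.46 to 1.3 for Gli1 and 0.46 to 1.44 for Ptch1, with 4 or 5 members called. Normexp on the median signals (the files hold no mean signal) gave -0.33 for Gli2 and -0.81 for Ptch1 (adjusted p = 0.0194), the 1 member then called lower, and lowered Dhh to 2.05 and Gli3 to 1.38; the cause was not tested. The mean of both Ptch1 probes gave -0.11 (adjusted p = 0.870). Over probes well above background on all 6 arrays 2 members were called, Smo and Gli3, and Gli1 was not. Dhh, Gli2 and Ptch1 are left out there, and 12901 of 19121 rows were called. Without the filter on dim probes 31881 of 46300 rows were called (68.9%), against 16349 of 27102 (60.3%). Among them was Shh as lower (limma adjusted p = 6.08e-05), which is background signal. With the replicate block, Ptch1 (adjusted p = 0.0166) and Gli1 (adjusted p = 0.0442) were called as well, and 16449 rows in all. The labels do not say that replicate numbers pair samples, so the numbers were not taken to pair them in the main fit. Deviations of same-numbered samples correlated at 0.33, 0.04 and 0.14. Across numbers they ran from -0.27 (KC replicate 3 with KCS replicate 1) to 0.18 (KC replicate 3 with KCS replicate 2). All pairs on the same slide were above 0 and all pairs across slides below 0. Median centring moved the share of calls that were higher, with 33.8% of rows higher and 26.0% lower. On an array, signal near background limits what can be said of Shh, Ihh, Hhip, Ptch1 and Gli2.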
